A study of Homo sapiens with 4 samples.

Results

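The genes described here are the 7 GIMAP genes of human chromosome 7 (GIMAP1, GIMAP2, GIMAP4, GIMAP5, GIMAP6, GIMAP7 and GIMAP8), found by symbol among the 22361 genes or loci of a table on knockdown of the long non-coding RNA ARIEL. All 7 symbols were found, each in 1 row, and all 7 passed the filter on low values. RNA was sequenced from Jurkat cells, an established human leukaemia line of the T-ALL type (T-cell acute lymphoblastic leukaemia). In 2 libraries the cells carried a lentiviral shRNA against ARIEL, and in 2 control libraries they carried a lentiviral shRNA against GFP. Both groups were infected with polybrene, were selected with puromycin at 0.7 µg/ml for 36 h or longer, were collected 72 h after infection and received ERCC spike-in RNA by cell number. The question was how RNA levels differ once ARIEL is reduced. Both knockdown libraries carry the same label, shARIEL, so loss of ARIEL and other effects of the shRNA cannot be told apart.

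GIMAP proteins (GTPases of immunity-associated proteins) are small GTP-binding proteins of lymphocytes and some other cells. Most sit on the membranes of organelles such as the endoplasmic reticulum, lysosomes or lipid droplets, and loss of single members in mice or rats shortens the life of peripheral T cells. In T-ALL cells the cluster has been described as a target of TAL1, the transcription factor on which Jurkat cells depend, through an enhancer within the locus, and ARIEL has been described as an RNA made next to an enhancer of the TAL1-circuit gene ARID5B.

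The values are regularised logs (rlog) on the log2 scale, in which the authors' transform draws low or noisy values towards a gene's mean. Differences are ARIEL knockdown minus control, tested with limma over 14601 genes, those whose mean rlog reached log2 of 10, and called at an adjusted p under 0.05. The sources used here do not say whether the size factors behind the rlog values used the spike-in, so differences per cell and differences relative to total RNA cannot be told apart. The table gives no counts, so depth is unknown, and no label describes the replicates as independent cultures, so p-values here reflect the spread among these libraries only, which may be technical. Median rlog over the tested genes was 11.31 and 11.32 in the knockdown libraries and 11.32 in both control libraries. The locus XLOC_005968, which background knowledge of the study identifies as ARIEL, had rlog values of 10.58 and 10.55 in the knockdown libraries, against 12.02 and 11.91 in the control libraries. All 11 listed T-cell markers were tested, 5 of them lower and 2 higher, where 22.4% of all tested genes were called lower and 22.1% higher. TRAT1 differed by -0.73 ± 0.04, a larger fall than that of any GIMAP gene. CD5, CD3G and CD28 differed by -0.32, -0.30 and -0.26, while CD7 and CD247 rose by 0.23 and 0.15. The summed level of the 11, in which LCK weighs most, was 18.00 to 18.02 in knockdown and 18.06 to 18.08 in control libraries (log2 scale). Of 5 B-lineage markers CD79A alone was tested, and it was called higher, at 11.23 and 11.25 in knockdown against 10.91 and 10.99 in control libraries, while MS4A1 was listed at 0 in every library. The summed myeloid markers, with CSF1R listed at 0 throughout, were at 5.21 to 5.22 in knockdown and 5.24 to 5.29 in control libraries. The natural killer markers summed to 4.39 in knockdown and 4.39 to 4.40 in control libraries, and the endothelial markers found in the table to 1.03 to 1.04 in knockdown and 1.03 in control libraries. The part of the T-cell and CD79A differences in the results below was not tested.

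All 7 GIMAP genes fell in the knockdown (7 of 7 called lower, where 22.4% of all tested genes were called lower, 22.1% higher and 44.4% in either direction). The median difference of the 7 was -0.45, against 0.00 over all tested genes, and each lay among the lowest 4.25% of tested genes. The knockdown and control libraries did not overlap for any of the 7, a pattern met in the same direction by 35.1% of all tested genes. In the authors' deposited table the 7 genes were between 1.48-fold and 2.40-fold lower, and 6 of them were lower by at least 1.5-fold, a mark that 3.96% of the genes with an adjusted p in that table reached while 19.3% were called lower at any fold. With each gene's own variance from 2 residual degrees of freedom in place of the shared spread, 0 of the 7 were called after adjustment (adjusted p of 0.0829 to 0.177), and 6 of 7 had an unadjusted p under 0.05, as did 31.2% of all tested genes. In bulk RNA, fewer cells that express a gene and less of its RNA per cell cannot be told apart.

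GIMAP7 had the largest fall. GIMAP7 (ENSG00000179144) encodes a GTPase that hydrolyses GTP when it pairs with itself or with GIMAP2. Its rlog values were 10.86 and 10.91 in the knockdown libraries, against 11.59 and 11.51 in the control libraries. The groups were 0.60 apart at their closest, while replicates differed by 0.051 in the knockdown and 0.079 in the control group. The difference was -0.66 ± 0.04 (SE, n = 2 per group; limma, adjusted p = 1.19e-56), the 36th lowest of all tested genes, and the authors' deposited table has it 2.40-fold lower.

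GIMAP4 and GIMAP1 followed. GIMAP4 (ENSG00000133574), linked in mouse T cells to the pace of programmed cell death, had rlog values of 11.64 and 11.56 in the knockdown libraries, against 12.25 and 12.17 in the control libraries. The difference was -0.61 ± 0.04 (SE, n = 2 per group; limma, adjusted p = 2.48e-57), and the authors' deposited table has it 2.19-fold lower. Both knockdown libraries lay below both controls by 0.53 or more. GIMAP1 (ENSG00000213203), which mature mouse T and B cells need to persist, was at 11.12 in both knockdown libraries, against 11.67 and 11.72 in the control libraries. Its difference was -0.58 ± 0.04 (SE, n = 2 per group; limma, adjusted p = 9.39e-45), or 2.13-fold lower in the authors' deposited table.

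GIMAP2 and GIMAP6 fell by less. GIMAP2 (ENSG00000106560), a protein of lipid droplets, had rlog values of 12.41 and 12.44 in the knockdown libraries, against 12.89 and 12.86 in the control libraries. The difference was -0.45 ± 0.03 (SE, n = 2 per group; limma, adjusted p = 8.79e-37), and the authors' deposited table has it 1.77-fold lower. GIMAP6 (ENSG00000133561), which binds the autophagy protein GABARAPL2, was at 12.63 and 12.68 in the knockdown libraries, against 13.03 and 13.04 in the control libraries. Its difference was -0.38 ± 0.03 (SE, n = 2 per group; limma, adjusted p = 1.53e-26), or 1.6-fold lower in the authors' deposited table. For both genes the replicates of a group lay within 0.05 of each other, several times closer than the groups.

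GIMAP5 and GIMAP8 had the smallest differences on the rlog scale. GIMAP5 (ENSG00000196329), a lysosomal member whose loss causes the lymphocyte deficiency of the diabetes-prone BB rat, was at 12.87 in both knockdown libraries, against 13.16 and 13.20 in the control libraries. The difference was -0.31 ± 0.03 (SE, n = 2 per group; limma, adjusted p = 9.91e-19), and the authors' deposited table has it 1.48-fold lower. GIMAP8 (ENSG00000171115), the member with several GTP-binding domains in 1 chain, was the lowest in level, with rlog values of 7.15 and 7.17 in the knockdown libraries, against 7.49 and 7.35 in the control libraries. Its difference was -0.26 ± 0.04 (SE, n = 2 per group; limma, adjusted p = 1.33e-08). The gap between its groups, 0.19, was little wider than the 0.138 between its 2 control replicates, and leaving out control replicate 1 left a difference of -0.19.

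**Figure D1:**
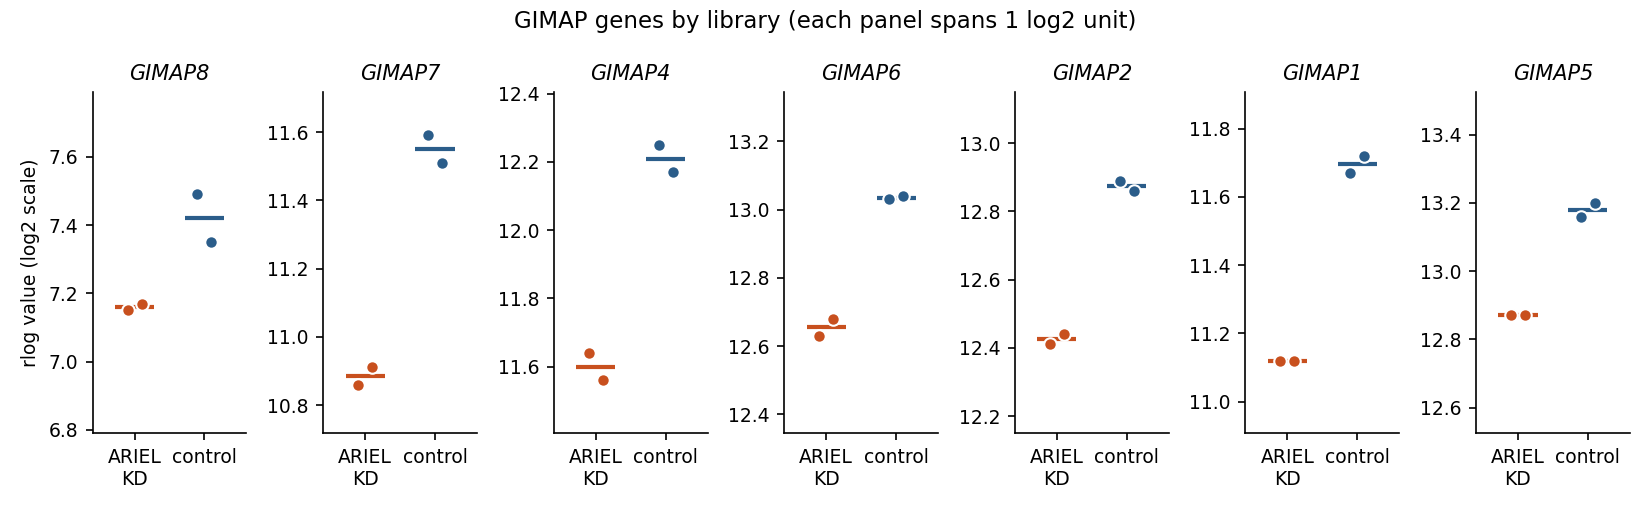
Rlog value (log2 scale) of each GIMAP gene in the 2 ARIEL knockdown libraries (orange, left) and the 2 control libraries (blue, right), in the order of the genes on chromosome 7. Bars are group means, and every panel spans 1 log2 unit. In each panel both knockdown libraries lie below both controls, with the narrowest gap in GIMAP8 (0.19) and the widest in GIMAP7 (0.60).

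Shrinkage by the transform was alike in 6 of the members and stronger in GIMAP8. For the 6 genes from GIMAP7 to GIMAP5 in the order of the chromosome, the rlog difference was 0.53 to 0.55 of the authors' deposited log2 fold change, and for the low GIMAP8 it was 0.32. The authors' deposited table thus puts GIMAP8 at a log2 fold change of -0.83 ± 0.20 (SE), beside -0.82 ± 0.06 for GIMAP2, and has GIMAP5 as the smallest at -0.56 ± 0.06. In the order of the rlog differences, GIMAP7 and GIMAP4 were 0.05 apart with a combined SE of 0.06, and GIMAP4 and GIMAP1 were 0.04 apart with a combined SE of 0.05. Neither of these neighbouring pairs differed beyond its combined SE on the rlog scale. In the authors' deposited table, the log2 fold change of GIMAP7 minus that of GIMAP4 was -0.14, with a combined SE of 0.12. That of GIMAP4 minus that of GIMAP1 was -0.04, with a combined SE of 0.11. GIMAP1 and GIMAP2 were 0.12 apart with a combined SE of 0.05. The next pairs, GIMAP2 with GIMAP6, GIMAP6 with GIMAP5 and GIMAP5 with GIMAP8, were 0.08, 0.07 and 0.05 apart, each with a combined SE of 0.05. All these combined SEs treat the genes of a pair as independent, although both were measured in the same 4 libraries.

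Differences between members within a library show the same unequal falls and are given as a description with no test, since the pairs were picked for the size of their falls. GIMAP7 minus GIMAP5 was -2.02 and -1.96 rlog units in the knockdown libraries, against -1.57 and -1.69 in the control libraries. GIMAP7 minus GIMAP4, 2 genes with like falls, was -0.78 and -0.65 in the knockdown and -0.67 and -0.66 in the control libraries, values that overlap.

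**Figure D2:**
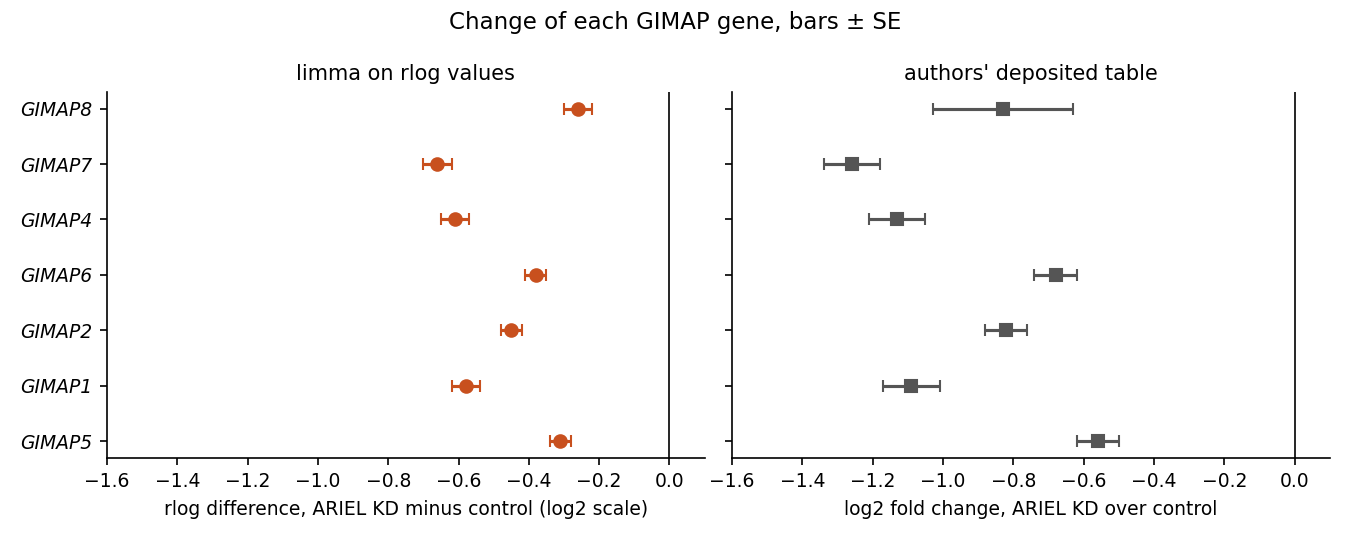
Change of each GIMAP gene, with bars of ± SE. The left panel gives the difference of rlog values, ARIEL knockdown minus control, from limma, and the right panel the log2 fold change, ARIEL knockdown over control, of the authors' deposited table. All 7 genes lie left of 0 in both panels, and GIMAP8 moves from the smallest difference (-0.26) to the level of GIMAP2 (-0.83 and -0.82) between the scales.

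Corrected for length, the members span a wide range of levels. Per kilobase of exon in GENCODE 29 (rlog minus log2 of the exon length in kb), GIMAP2 was highest, with a mean level of 11.69 in knockdown and 12.14 in control libraries, followed by GIMAP5 at 11.60 and 11.91. GIMAP7 (10.56 in knockdown, 11.22 in control), GIMAP4 (10.53 in knockdown, 11.14 in control) and GIMAP6 (10.69 in knockdown, 11.07 in control) formed a middle group, whose neighbours were 0.08 and 0.07 apart in control libraries, against replicate SDs of 0.013 to 0.061; control libraries of GIMAP7 and GIMAP4 met at 11.18. GIMAP6 was the lowest of these 3 in control libraries and the highest of them in the knockdown. GIMAP1 stood lower, at 8.97 in knockdown and 9.55 in control libraries, and GIMAP8 lowest, at 5.09 in knockdown and 5.36 in control libraries. The knockdown therefore changed each level by less than the span between GIMAP2 and GIMAP8, and GIMAP2 and GIMAP5, the 2 highest, kept their place above the others. These places depend on the exon lengths used, 2409 bases for GIMAP5, and other gene models were not tested.

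**Figure D3:**
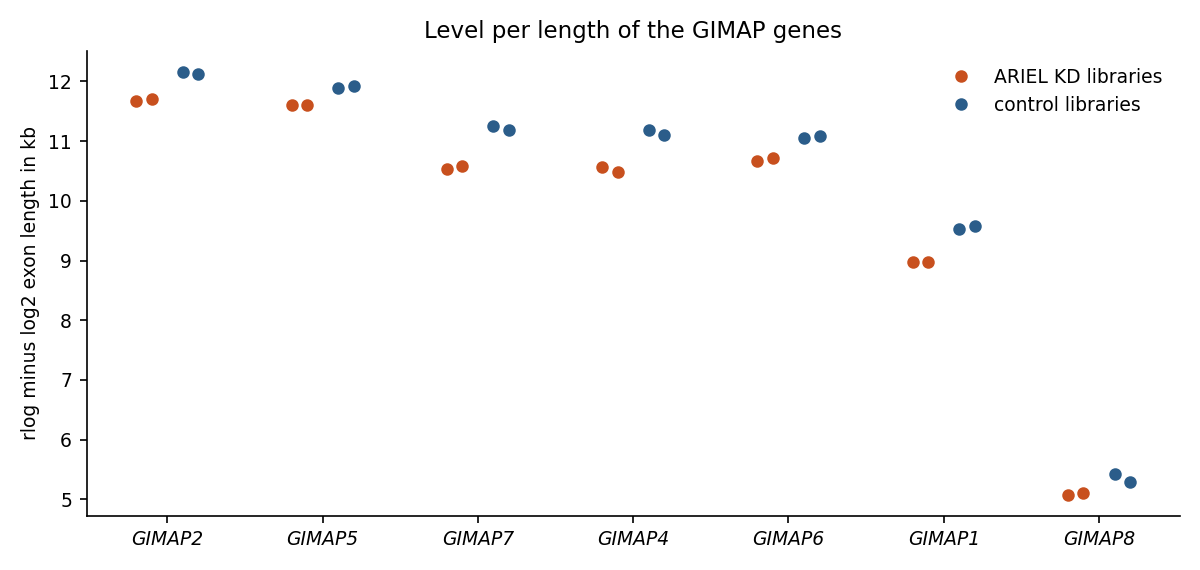
Level per length of the GIMAP genes (rlog minus log2 of exon length in kb) in each of the 2 ARIEL knockdown libraries (orange, left) and 2 control libraries (blue, right), ordered by the control mean. Control means run from 12.14 for GIMAP2 to 5.36 for GIMAP8, and the points of GIMAP7, GIMAP4 and GIMAP6 lie close together.

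Reads of the members could be told apart by sequence with 1 exception. No stretch of 100 bases, the length of a read, in the GENCODE 29 transcripts of GIMAP2, GIMAP4, GIMAP6, GIMAP7 or GIMAP8 also occurred in a transcript of another gene. GIMAP1 shared 7.40% of its stretches with other genes and GIMAP5 29.3%, mainly with the read-through gene GIMAP1-GIMAP5, which runs across both on the same strand and holds 7.0% and 25.9% of their stretches. Values of GIMAP1 and GIMAP5 are therefore uncertain. The extent is not known, since these are shares of sequence and not of reads. For GIMAP5 the share is out of 6272 stretches, against an exon length of 2409 bases used for its level. GIMAP6 is the member on the opposite strand to the other 6, and it fell like them.

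Promoter sequences of all 7 members are held in the RefSeq table used (GRCh38.p14), read here as the 250 bases before the annotated start. They are shown for GIMAP7, GIMAP1 and GIMAP2, since these share a stretch of 14 bases, CCTGAGCTTCCTGA, or its reverse complement, TCAGGAAGCTCAGG, given in capitals. The lines below give GIMAP7 at chr7:150514622-150514871, GIMAP1 at chr7:150716363-150716612 and GIMAP2 at chr7:150685456-150685705, all on the plus strand, 5′ to 3′.
GIMAP7: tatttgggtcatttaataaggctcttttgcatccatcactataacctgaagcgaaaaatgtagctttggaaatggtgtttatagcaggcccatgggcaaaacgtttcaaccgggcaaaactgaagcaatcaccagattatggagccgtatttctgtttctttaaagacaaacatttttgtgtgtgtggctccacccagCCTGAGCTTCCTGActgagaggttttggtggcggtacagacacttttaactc
GIMAP1: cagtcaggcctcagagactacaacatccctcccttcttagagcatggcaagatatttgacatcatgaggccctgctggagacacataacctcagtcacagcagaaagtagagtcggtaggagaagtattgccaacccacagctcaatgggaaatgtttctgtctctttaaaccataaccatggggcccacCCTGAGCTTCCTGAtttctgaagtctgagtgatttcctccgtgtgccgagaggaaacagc
GIMAP2: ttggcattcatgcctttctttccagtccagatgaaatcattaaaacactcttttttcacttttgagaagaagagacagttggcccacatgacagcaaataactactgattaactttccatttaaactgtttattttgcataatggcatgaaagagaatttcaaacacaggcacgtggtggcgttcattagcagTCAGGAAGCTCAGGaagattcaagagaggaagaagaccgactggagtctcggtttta
The stretch begins 52 bases before the start in GIMAP7, 60 bases before it in GIMAP1 and, as the reverse complement, 57 bases before it in GIMAP2. It was picked, after the values were seen, as the longest stretch that GIMAP7 and GIMAP1 share, so its presence in both was fixed by that choice. Of 34943 distinct promoters searched on both strands, 3 held it (0.00859%), and these were the 3 shown, the GIMAP1 one being also that of the read-through gene. GIMAP7 and GIMAP2 match over 17 bases. Of the 21 pairs of members, the pairs outside these 3 genes shared at most 11 bases. The carriers had the largest (GIMAP7), the third largest (GIMAP1) and the fourth largest (GIMAP2) rlog fall, while GIMAP4, with the second largest, lacks the stretch. A link between the stretch and the falls was not tested.

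Short motifs of the TAL1 circuit were not common to the 7 promoters. The E-box CAGNTG, a form bound by TAL1 with its E-protein partners, was present on either strand in 4 of the 7 (GIMAP4, GIMAP6, GIMAP2 and GIMAP5), where 42.5% of all promoters hold it. The ETS motif GGAAGT was present in 4 (19.5% of all promoters) and the MYB motif AACTG in 3 (34.2% of all promoters). The GATA motif AGATAA and the RUNX motif TGTGGT were found in 0 of the 7 windows, where 9.19% and 11% of all promoters hold them. Of the searched motifs, AACTG overlaps the E-box wherever CAGNTG reads CAGTTG on either strand. A motif match describes letters in this window and does not show binding. Only these windows were searched, and the enhancer within the locus was not.

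Most genes on either side of the cluster did not share its fall. Of the 24 protein-coding genes listed on either side of it, 21 were tested, of which 1 was called lower and 9 higher, with a median difference of 0.08 and a range of -0.13 to 0.23. Every one of them lay above the 7 GIMAP genes, which ranged from -0.66 to -0.26. On chromosome 7 without the members, 19.8% of 661 tested genes were called lower and 18.9% higher.

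On the side of GIMAP8, ZNF775, a zinc finger gene and the nearest tested neighbour, was at 11.13 and 11.16 in the knockdown libraries, against 10.90 and 10.93 in the control libraries, which differ by 0.23 ± 0.04 (SE, 2 libraries each; limma, adjusted p = 2.97e-07). REPIN1, a replication initiator, differed by 0.16 ± 0.03 and was called higher, as was ZBED6CL at 0.17 ± 0.04. RARRES2, which encodes the chemoattractant chemerin, was near the filter at 3.45 and 3.46 in knockdown and 3.47 and 3.50 in control libraries, and was not called. On the side of GIMAP5, AOC1, a diamine oxidase, stood as low, at 3.48 and 3.45 in knockdown and 3.44 and 3.48 in control libraries. KCNH2, a potassium channel gene, was the neighbour called lower, with 12.13 and 12.16 in the knockdown libraries, against 12.23 and 12.32 in the control libraries (limma, adjusted p = 0.00168), a call that did not hold when ARIEL knockdown replicate 1 or control replicate 2 was left out. NOS3, the endothelial nitric oxide synthase, and TMUB1 were called higher at 0.10 ± 0.04 and 0.16 ± 0.03. Both calls were lost with the GC and length trend removed, and that of NOS3 also in the authors' deposited table and when either ARIEL knockdown replicate or control replicate 1 was left out. TMEM176A and TMEM176B, which lie between GIMAP5 and AOC1 in the reference, did not pass the filter on low values. Without ARIEL knockdown replicate 2, 5 of the 21 neighbours were called higher, ZBED6CL no longer among them.

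Transcript GC content differed between the cluster and its surroundings. The 7 members had transcripts of 40.4% to 51.5% GC (median 47.5%), against a median of 63.0% for the neighbours and 49.4% for all tested genes with a transcript. With the trend of each library with GC content and length removed, the members differed by -0.65 to -0.24 and were all called lower. The neighbours then ranged from -0.20 to 0.14 with a median of 0.02, and 6 were called higher and 4 lower. Those called lower were KCNH2, ATG9B and ASIC3, all on the side of GIMAP5, and RARRES2 on the side of GIMAP8. The lowest neighbour, at -0.20, thus came near the weakest member, at -0.24.

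**Figure D4:**
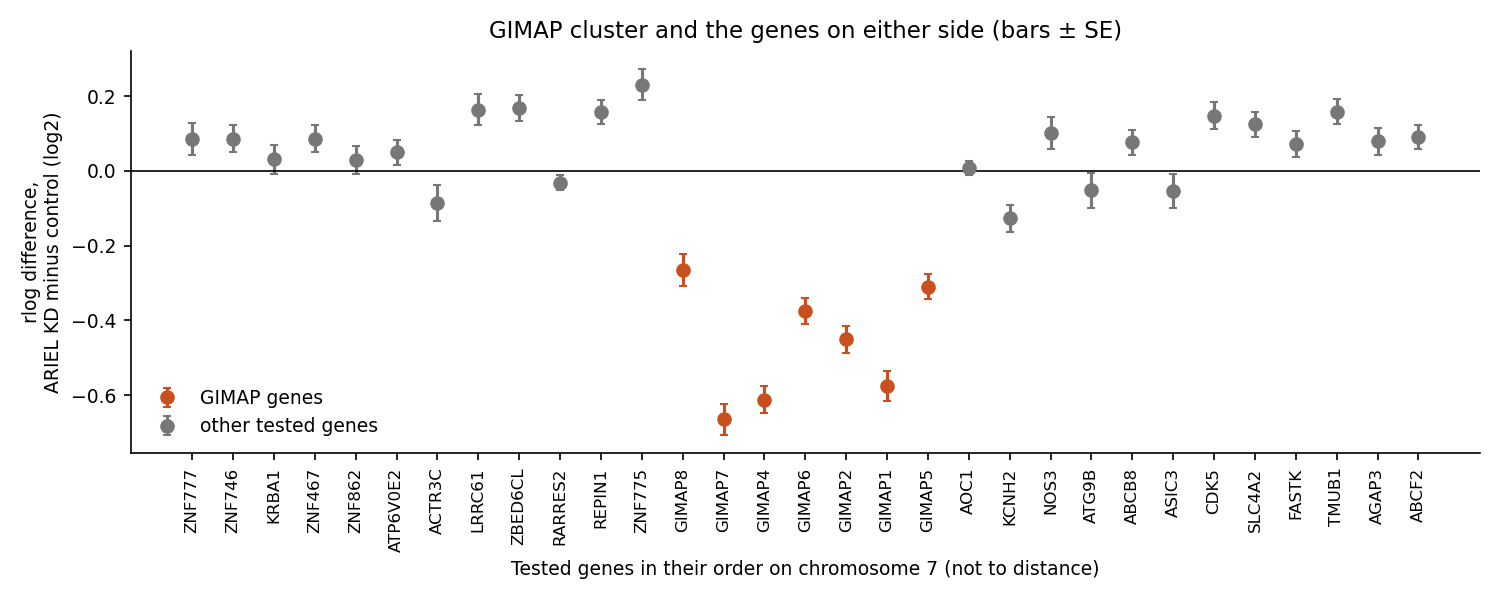
Difference of rlog values, ARIEL knockdown minus control, for the 7 GIMAP genes (orange) and the 12 nearest tested genes on each side (grey), in their order on chromosome 7 and not to distance. Bars are ± SE. The 24 outer genes lie between -0.13 and 0.23, and the GIMAP genes between -0.66 and -0.26.

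Runs of neighbouring genes that were all called lower occurred elsewhere too. Among 12599 tested protein-coding genes in reference order, 11 runs of at least 6 such genes were present, the GIMAP cluster being 1 of the 3 with 7 or more. The longest, of 11 genes, lay among the zinc finger genes of chromosome 19 between ZNF260 and ZNF420, with a median difference of -0.16. The median differences of the 10 other runs were -0.32 to -0.15, against -0.45 for the GIMAP run.

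Among the transcription factors of the TAL1 complex and its partners, 6 of 10 tested fell and 3 rose, where 22.4% of all tested genes were called lower and 22.1% higher. The largest fall was that of ARID5B, at 13.57 and 13.55 in the knockdown libraries, against 14.04 and 13.99 in the control libraries, a difference of -0.46 ± 0.03 that is close to the GIMAP median. TAL1 stood at 14.97 and 15 in the knockdown libraries, against 15.22 and 15.21 in the control libraries, which differ by -0.23 ± 0.03 (SE, 2 libraries each; limma, adjusted p = 1.31e-11). GATA3 and MYB, 2 further members of the circuit, differed by -0.27 ± 0.05 and -0.23 ± 0.03. LMO1, TCF3 and LDB1, which encode partners in the complex, rose by 0.22, 0.12 and 0.12, the call of LDB1 being lost without control replicate 1, and TCF12 was not called (limma, adjusted p = 0.0509). TCF12 was called higher under other settings, such as the stricter filter, median centring and the removed GC and length trend, and in the authors' deposited table. On the authors' log2 fold change scale TAL1 was at -0.41 in the authors' deposited table, a smaller change than that of any GIMAP gene.

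Genes of the naive and long-lived T cell programme, in which GIMAP genes are known to be expressed, were mostly lower as well. Of 11 tested, 9 fell, where 22.4% of all tested genes were called lower, with a median difference of -0.19, and TCF7 and KLF2 were not called. With the GC and length trend removed 8 fell, TCF7 being called lower while FOXO1 and FOXP1 were not called. S1PR1, the receptor by which T cells leave lymphoid organs, was at 9.24 and 9.26 in the knockdown libraries, against 9.71 and 9.63 in the control libraries, which differ by -0.42 ± 0.05 (SE, 2 libraries each; limma, adjusted p = 1.78e-16). SATB1, a chromatin organiser, differed by -0.35 ± 0.03, and IL7R, the receptor for the survival cytokine interleukin 7, by -0.22 ± 0.03.

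Genes for proteins linked to GIMAP function had small differences. Of 11 listed BCL2-family genes and GIMAP partners, 4 rose and 1 fell, where 22.1% of all tested genes were called higher and 22.4% lower, with a median difference of 0.05 and a range of -0.10 to 0.14. The pro-death genes BAD and BAK1 rose by 0.14 ± 0.04 and 0.13 ± 0.04, GABARAP, of the autophagy family that binds GIMAP6, rose by 0.11 ± 0.03, and the survival gene MCL1 fell by 0.10 on the rlog scale, a call that was lost without control replicate 1. BAD was not called once the GC and length trend was removed, GABARAP without ARIEL knockdown replicate 1, and BAK1 without ARIEL knockdown replicate 2. GABARAPL2, the named partner of GIMAP6, was at 12.49 and 12.44 in the knockdown and 12.51 and 12.43 in the control libraries, values that overlap. BCL2 was at 11.74 and 11.72 in knockdown and 11.78 and 11.76 in control libraries and was not called. Without ARIEL knockdown replicate 1, and likewise without replicate 2, 2 genes of this list rose.

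**Figure D5:**
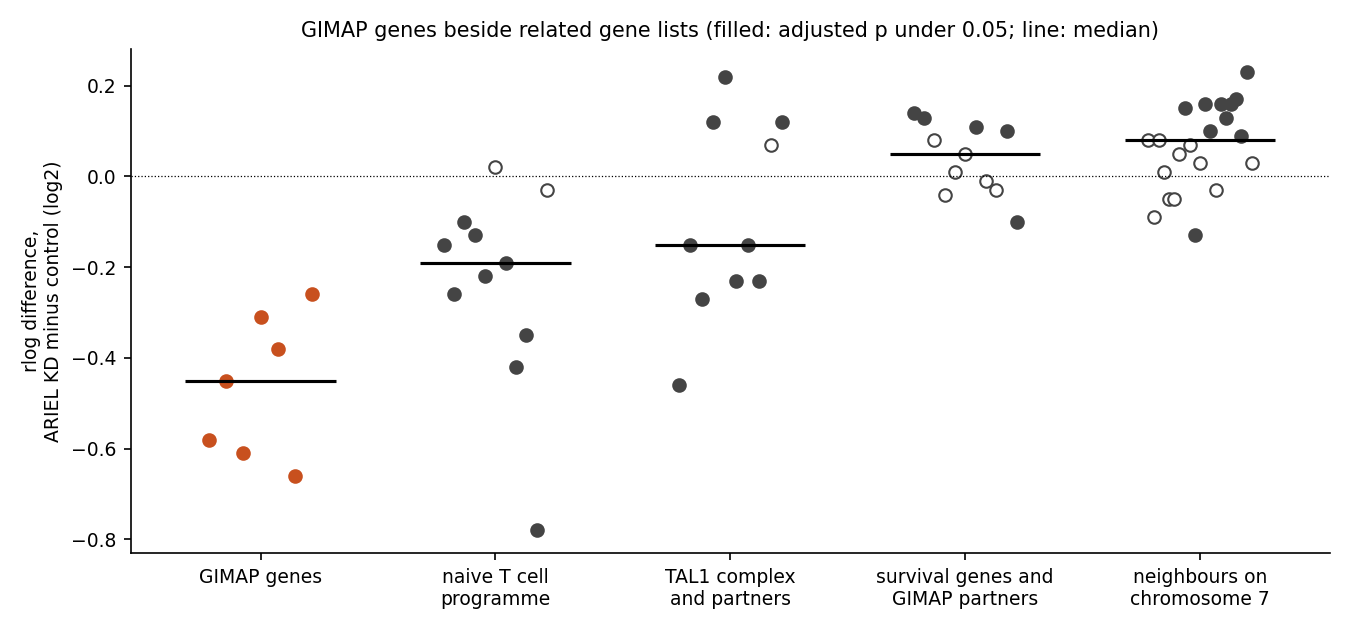
Difference of rlog values, ARIEL knockdown minus control, of each tested gene in 5 lists, with filled points for an adjusted p under 0.05 and a line at each list's median. The GIMAP genes (median -0.45) lie lowest as a list, the naive T cell programme (-0.19) and the TAL1 complex and partners (-0.15) reach below 0, and the other 2 lists have medians of 0.05 and 0.08.

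The genes most like the cluster over the 4 libraries were taken as those nearest to the average centred profile of the 7 members, which was -0.24 and -0.23 in the knockdown and 0.25 and 0.22 in the control libraries. Of 11768 genes whose mean reached log2 of 50, the 5 nearest were RNASE6, a secreted ribonuclease, at a Euclidean distance of 0.013, VGLL4, a cofactor of TEAD factors, at 0.017, COX16, an assembly factor of cytochrome oxidase, at 0.018, RAB11FIP1, an effector of RAB11, at 0.019, and SHFM1, a proteasome and BRCA2-binding protein, at 0.021. VGLL4, for example, was at 12.42 and 12.43 in the knockdown libraries, against 12.90 and 12.89 in the control libraries. These 5 lie on chromosomes 14, 3, 14, 8 and 7. With 4 libraries such likeness amounts to a like difference between the groups and small replicate gaps. It also holds on the rlog scale only for RNASE6, which the authors' deposited table has at a log2 fold change of -1.36 ± 0.18 (SE). The median of the GIMAP genes there was -0.83, with VGLL4, COX16 and RAB11FIP1 at -0.86 and SHFM1 at -0.83.

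The 3′ UTR of GIMAP6 held AGATGAC, 1 of 2 short words (with GATGACA) that were picked in earlier work on these data. The 3′ UTRs of the other 6 members held neither word, and 15.6% of 12521 tested genes with a 3′ UTR held at least 1. Only the longest coding transcript of each gene was searched, and a link between the words and the falls was not tested.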

How the data were processed

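Strand-specific libraries of 4 Jurkat samples were sequenced as read pairs of 100 bases, per the labels' protocols. The submitters' processing notes list DESeq2 1.12.4, HTSeq 0.6.1 and STAR 2.5.2a with the genome build hg19, without roles. In the authors' deposited table each gene has, per the file headers, an rlog value on the log2 scale for every library, with a log2 fold change, its standard error, a test score, a p-value and an adjusted p. The table has no counts, and 0 spike-in rows.

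Members were matched by gene symbol. limma 3.58.1 in R 4.3.3 (lmFit, then eBayes with the trend option) was fitted to all 4 libraries over the 14601 genes past the filter, with Benjamini-Hochberg adjustment over all of them. The prior degrees of freedom were infinite, so genes of a level share 1 spread. The replicate SDs of GIMAP8 (0.070), GIMAP7 (0.047) and GIMAP4 (0.060) exceeded the shared 0.043, 0.041 and 0.037, so their SEs may be too small. Those of GIMAP6, GIMAP2, GIMAP1 and GIMAP5 lay below the shared values. Each replicate SD rests on 2 residual degrees of freedom and is itself uncertain. The fit was tested on simulated data, but whether genes of a level do share 1 spread was not tested.

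Gene order, exon length, GC content and transcripts came from GENCODE 29 by gene ID, and promoters from RefSeq on GRCh38.p14, a different build from that of the data, so no coordinates of the data are given. Named genes were all members, the 3 nearest tested neighbours on each side, up to 4 called genes per list with the smallest adjusted p, TAL1, and the 5 genes most like the cluster. LMO1, TCF3, LDB1, TCF12, TRAT1, CD5, CD3G, CD28, CD7, CD247, LCK, CD79A, MS4A1, CSF1R, TCF7, KLF2, FOXO1, FOXP1, TMEM176A, TMEM176B, ATG9B, ASIC3, GABARAPL2, BCL2 and the genes at the ends of the longest run were named after their values were seen, as were the motifs and the shared stretch. The values of 1 list gene are not reported here. Members and lists were chosen with earlier results of these data known.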

Additional observations from a re-analysis of the deposited data

How the results depend on the processing

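The direction of the 7 GIMAP differences was the same in all 14 alternatives, an outcome mostly fixed in advance. Another filter, variance model or replicate block alone leaves the difference itself unchanged. Leaving out 1 library cannot reverse it where the groups do not overlap. Of the 98 values, 7 were not called. These 7 came from using the variance of each gene alone: there 0 members and 0 genes of the whole table were called with limma's linear fit, with differences of -0.26 (GIMAP8), -0.66 (GIMAP7), -0.61 (GIMAP4), -0.38 (GIMAP6), -0.45 (GIMAP2), -0.58 (GIMAP1) and -0.31 (GIMAP5) and adjusted p from 0.0829 to 0.177. At an unadjusted p under 0.05 that fit passed 6 of the 7 members, GIMAP8 being the exception (0.0633), and 4561 genes in all. No gene of the other lists was called there either. The main fit called 6488 genes. Leaving out 1 library at a time, 4225 to 6188 genes were called, the lowest without ARIEL knockdown replicate 2, while 7 of 7 members were called each time. Over these fits the differences ranged from -0.33 to -0.19 for GIMAP8, from -0.70 to -0.63 for GIMAP7 and from -0.33 to -0.29 for GIMAP5.

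The labels give the replicate numbers no meaning, and 2 pairs are too few to show that they pair the libraries; replicate 2 minus replicate 1 correlated at 0.198 between the groups over genes. With the replicate block 7426 genes and 7 of 7 members were called, and with the block and the GC and length trend removed 6820 genes and again 7 of 7 members. With the trend removed and no block, 6754 genes were called. For the neighbours, 6 were called higher and 4 lower with that trend removed, against 9 and 1. Without counts, the depth limits on GIMAP8 cannot be given.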
